A study of Mus musculus with 24 samples.

Results

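The cytochrome P450 genes of families 1, 2 and 3 were examined in mouse liver under feeding, sugar water and fasting. A gene belonged to the set if the array named it Cyp1, Cyp2 or Cyp3 with a subfamily letter and a number, and if the signal of a probe for it clearly passed the background (the scanner software's flag) in 6 or more of the 24 mice. Of 60 such genes on the array 55 met this, out of 23990 genes measured in all, and each was represented by its brightest probe. Every sample was the liver of a single male wild-type C57Bl/6J mouse aged 8 weeks and fed chow, killed at ZT16, with 1 array per mouse. The control group had food and tap water, a second group had food and water with 20% glucose, and another had food and water with 20% fructose. The last group was fasted. Each regime lasted 24 hours, and each group held 6 mice. No group carried a transgene, a deleted gene or a drug treatment.

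Cytochrome P450 enzymes are heme proteins of the endoplasmic reticulum that insert an oxygen atom into their substrates, with electrons passed on by the reductase Por. Families 1, 2 and 3 act mainly on drugs, plant compounds and pollutants, but also on steroids, bile acids, retinoids and arachidonic acid. In liver their RNA is known to depend on receptors that sense foreign and endogenous chemicals. Ahr acts on family 1, and Nr1i3 (CAR) and Nr1i2 (PXR) act on subfamilies 2b, 2c and 3a. Growth hormone sets the sex-biased members.

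The arrays had between 32516 and 36274 probes well above background, and 2 arrays of each group lay on each of 3 slides. Levels are given as log2 signal relative to the 75th percentile of the same array, so a level can be compared between mice but not between genes. The hepatocyte marker Alb stood at 10.14 ± 0.10 on water and 10.09 ± 0.08 after fasting (mean ± SD, n = 6). Alb does not stand for all 6 hepatocyte markers listed, of which 2 were higher and 1 lower with fasting by the test used below. Their mean level per array was 8.53 to 8.78 on water and 8.82 to 8.99 after fasting. Of the 5 genes left out, Cyp2b13, Cyp2b23 and Cyp3a44 were above background on 0 arrays and Cyp2b19 and Cyp2j11 on 1. Just inside the limit were Cyp2c39 with 6 arrays, all from fasted mice, and Cyp2c66 with 15. Many members are near copies of each other: the array design lists a transcript of another gene for the probes of 11 members. These probes belong to Cyp2a4, Cyp2b9, Cyp2c37, Cyp2c40, Cyp2c66, Cyp2c68, Cyp2c69, Cyp2j13, Cyp3a11, Cyp3a25 and Cyp3a41a, and their values may mix 2 or more genes. Cyp2c44 is named Cyp2c23 in RefSeq. The members lie on 8 chromosomes, with 16 on chromosome 19, 12 on chromosome 7, 10 on chromosome 15 and 8 on chromosome 5.

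Fasting against feeding shows how the P450 genes stand after 24 hours without food. Of the 55 members 37 were called, which is 67.3%, against 42.7% of all genes tested (limma, Benjamini-Hochberg adjusted p under 0.05). Higher levels were found for 17 members and lower levels for 20, where 20.7% and 21.9% of all genes were called higher and lower. In 35 members the 6 fasted mice did not overlap with the 6 mice on water, and 24.5% of all genes showed this. These counts include Cyp2c39, which was measured above background in fasted mice only and was kept through them; without it 36 of 54 members were called, 66.7%, with 16 higher and 34 without overlap. By unadjusted p under 0.05 it would be 39 members and 48.6% of all genes. The median log2 fold change was -0.04 over the members and 0.01 over all genes. The calls were unlike between subfamilies: 7 of 7 Cyp3a members and 2 of 2 Cyp2b members were higher, 10 of 16 Cyp2c members and 4 of 5 Cyp2j members were lower, and 0 of 4 Cyp2a members were called. Members whose probes also list genes of the same subfamily, such as Cyp3a11, Cyp3a25 and Cyp2b9, are not separate observations. Cyp3a16 and Cyp3a57, whose probes list no other gene, followed Cyp3a11 and Cyp3a25 between mice and may not be separate either. These are levels in whole liver, where fewer cells of a type and less RNA per cell cannot be told apart.

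**Figure D1:**
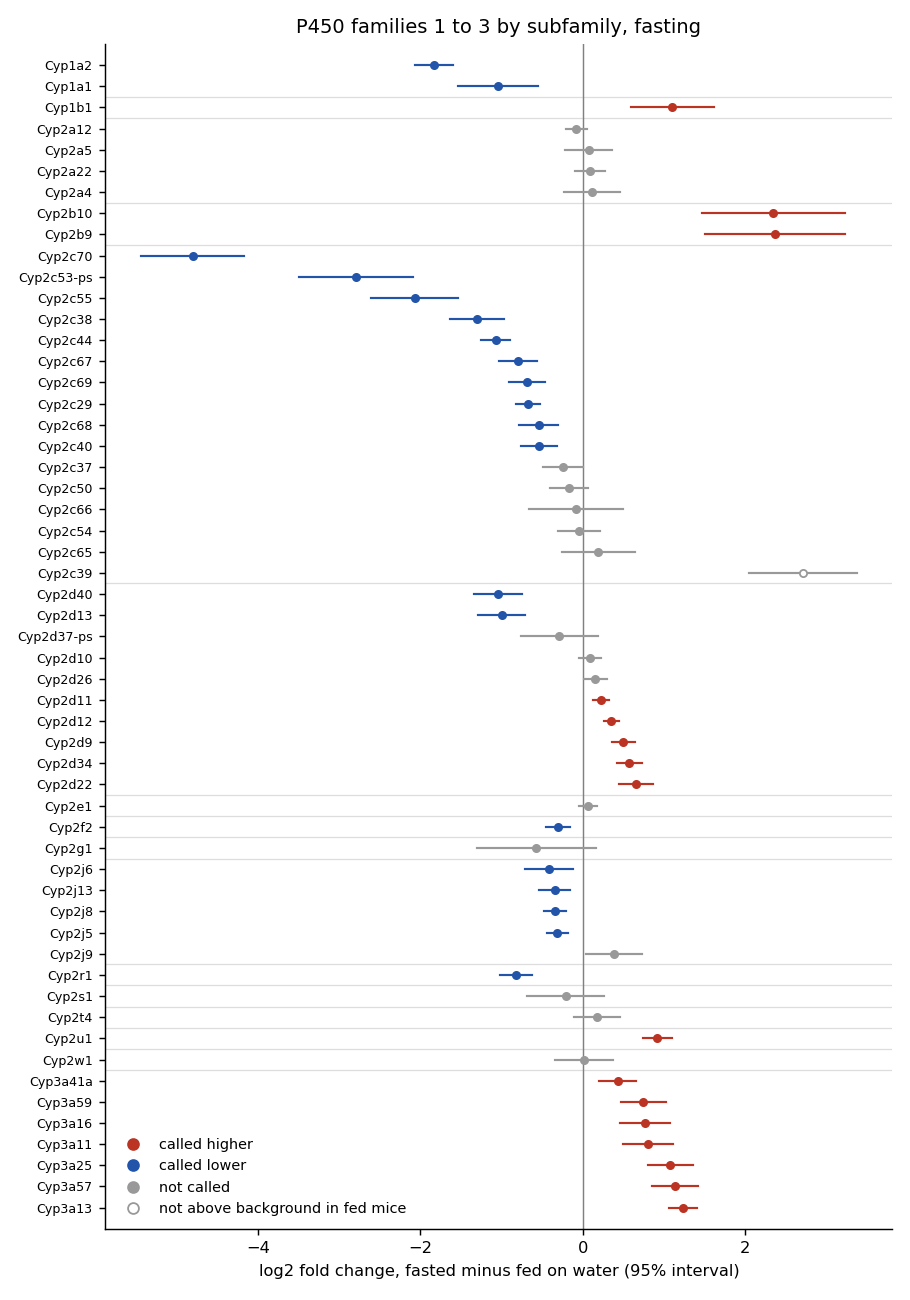
Log2 fold change of each of the 55 members between fasted mice and mice on water (points) with its 95% interval (lines), grouped by subfamily, 6 mice per group. Red points were called higher, blue points lower and grey points were not called, and the open point is Cyp2c39, whose size is not settled because its fed levels were not above background. The 7 Cyp3a members lie between 0.43 and 1.24, while 10 of the 16 Cyp2c members lie below 0 with a call.

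The Cyp3a enzymes clear a broad range of drugs and steroids. All 7 measured members rose with fasting, by 0.43 to 1.24 on the log2 scale with a median of 0.81. In each of the 7 the fasted mice lay wholly above the mice on water, where 24.5% of all genes showed no overlap in either direction. Cyp3a13 had log2 levels of 3.95 to 4.13 (median 4.01) on water and 4.98 to 5.52 (median 5.30) after fasting. Every fasted mouse was above every fed mouse of all 3 fed groups. The difference was 2.36-fold, a log2 fold change of 1.24 ± 0.08 (SE; limma adjusted p = 6.06e-11).

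Cyp3a11, the main Cyp3a enzyme of adult mouse liver, ranged from 6.58 to 7.10 (median 6.91) on water and from 7.36 to 8.07 (median 7.60) after fasting. It was 1.75-fold higher (0.81 ± 0.15; limma adjusted p = 0.000111). Its probe also lists Cyp3a41a, Cyp3a41b and Cyp3a44, so the rise is that of their common signal. Cyp3a25 ran from 5.71 to 6.00 (median 5.86) on water and from 6.66 to 7.19 (median 6.99) after fasting. Cyp3a57 ran from 4.64 to 4.97 (median 4.79) and from 5.68 to 6.13 (median 6.00). For both genes the fasted group stood clear of the water group, 2.12-fold higher for Cyp3a25 and 2.19-fold for Cyp3a57. Cyp3a16, a gene known from fetal and female liver, had medians of 5.93 and 6.62 and was 1.70-fold higher (0.77 ± 0.15). Its probe put the mice on glucose, and the fasted mice, in the same order as that of Cyp3a11. It may read a signal shared with Cyp3a11, which was not tested. Cyp3a41a, also female-biased in adult mice, showed the least rise of the subfamily. It ranged from 8.28 to 8.61 (median 8.51) on water and from 8.77 to 9.10 (median 8.87) after fasting, a log2 fold change of 0.43 ± 0.11 (limma adjusted p = 0.00224). With quantile normalization it was 0.26 and not called (limma adjusted p = 0.0705). Cyp3a59 was 1.68-fold higher (0.75 ± 0.13). The probe of Cyp3a25 also lists Cyp3a59, so these genes are not separate observations. The probe of Cyp3a57 put the mice on glucose, and those on fructose, in the same order as that of Cyp3a25. Cyp3a57 may thus not be a separate observation either, and a shared signal was not tested.

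The Cyp2b genes are the textbook targets of CAR. Cyp2b10 had log2 levels of -1.28 to 1.08 (median 0.39) on water and 1.88 to 3.63 (median 2.56) after fasting. Cyp2b9 had levels of -2.95 to -0.78 (median -1.40) and 0.06 to 1.91 (median 0.90). Neither gene had a fasted mouse within the range of the water group, although both spread widely within each group. Cyp2b10 was 5.09-fold higher (2.35 ± 0.42; limma adjusted p = 8.75e-05) and Cyp2b9 5.17-fold higher (2.37 ± 0.41; limma adjusted p = 5.81e-05). The probe of Cyp2b9 also lists Cyp2b10. A further Cyp2b10 probe gave 2.45 ± 0.52. Within the 3 slides Cyp2b10 differed by 2.45, 2.71 and 1.89.

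**Figure D2:**
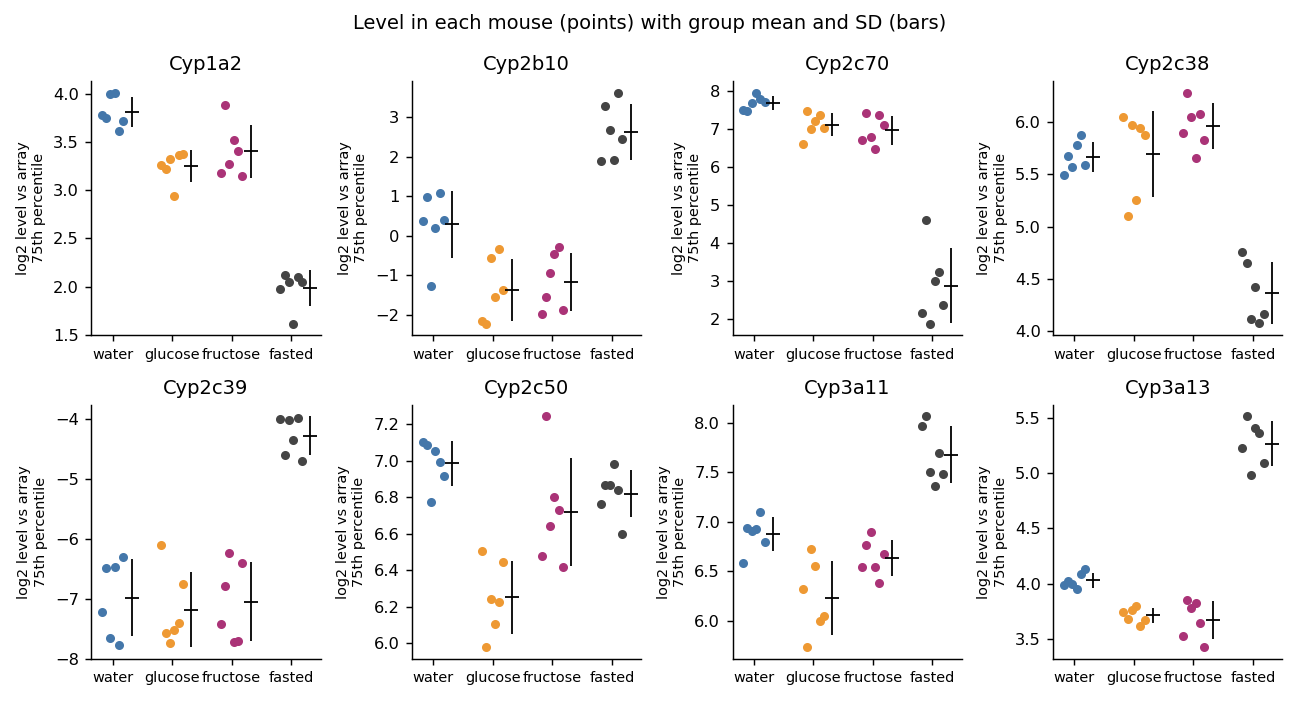
Log2 level relative to the array's 75th percentile in each mouse (points), with the group mean and SD (bars), for 8 members in the 4 groups of 6 mice. Cyp2b10, Cyp3a11 and Cyp3a13 lie above the fed groups in all fasted mice, Cyp2c39 was above background in these mice only, and Cyp1a2, Cyp2c70 and Cyp2c38 lie below them. Cyp2c50 is lower in all 6 mice on glucose than in the mice on water.

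The Cyp2c subfamily, the largest in the mouse, includes the main arachidonic acid epoxygenases of liver and 1 enzyme of bile acid synthesis. Its 16 members form a cluster on chromosome 19, with Cyp2c44 lying apart from the others. With fasting 10 were lower, 1 was higher (Cyp2c39, kept through the fasted mice alone) and 5 were not called, with a median log2 fold change of -0.61. Among all genes 21.9% were called lower and 20.7% higher. The largest fall of any member was that of Cyp2c70, the hydroxylase that makes muricholic acids, the bile acids characteristic of mice and rats. Its log2 levels ran from 7.46 to 7.95 (median 7.68) on water and from 1.88 to 4.59 (median 2.68) after fasting. The 6 fasted mice were far below all 18 fed mice, and they also differed most among themselves, with an SD of 0.98 against 0.18. Cyp2c70 was 28.0-fold lower (-4.81 ± 0.31; limma adjusted p = 2.76e-11), and the differences within slides were -5.13, -3.83 and -5.46. Its probe lies at chr19:40227969-40228028 (mm9, minus strand).

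Cyp2c38 and Cyp2c39 are neighbouring genes that were read differently. Cyp2c38 had log2 levels of 5.50 to 5.88 (median 5.63) on water and 4.08 to 4.76 (median 4.29) after fasting, 2.47-fold lower (-1.30 ± 0.16; limma adjusted p = 5.21e-07). Cyp2c39, which can hydroxylate retinoic acid, was not well above background in any of the 18 fed mice and was above it in all 6 fasted mice. Its measured levels were -7.77 to -6.31 (median -6.85) on water and -4.69 to -3.98 (median -4.18) after fasting. Against a floor set for each dim array the gene was 2.46-fold higher, given as a description with no test. Cyp2c39 was kept only because of its fasted arrays, so that it had to differ. The floor was the lowest signal of any probe that passed as above background on that array, or the gene's own value where higher. The limit for this probe may lie above that floor, so 2.46-fold is not a strict lower bound.

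The 250 bases before the start of both genes and of their neighbour Cyp2c29 are shown because they are so alike. Cyp2c38 fell with fasting, but Cyp2c39 was kept through its fasted arrays alone, so the contrast between these genes is not a tested one. The sequences are from RefSeq on GRCm38.p6, 5′ to 3′, with each TATAAA in capitals. Cyp2c29 lies on the plus strand at chr19:39286835-39287084 and Cyp2c38 on the minus strand at chr19:39463076-39463325. Cyp2c39, on the plus strand, has 2 annotated starts, with windows at chr19:39347096-39347345 and chr19:39510572-39510821.
Cyp2c29: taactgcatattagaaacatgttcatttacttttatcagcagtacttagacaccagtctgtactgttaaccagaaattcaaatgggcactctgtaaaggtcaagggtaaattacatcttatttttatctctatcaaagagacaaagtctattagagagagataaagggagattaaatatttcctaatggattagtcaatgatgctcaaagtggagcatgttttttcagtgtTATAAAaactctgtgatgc
Cyp2c38: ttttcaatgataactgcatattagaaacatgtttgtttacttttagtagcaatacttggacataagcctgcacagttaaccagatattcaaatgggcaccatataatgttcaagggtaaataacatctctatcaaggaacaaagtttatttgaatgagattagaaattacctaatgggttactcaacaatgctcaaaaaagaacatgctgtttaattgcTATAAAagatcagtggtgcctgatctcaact
Cyp2c39 start 1: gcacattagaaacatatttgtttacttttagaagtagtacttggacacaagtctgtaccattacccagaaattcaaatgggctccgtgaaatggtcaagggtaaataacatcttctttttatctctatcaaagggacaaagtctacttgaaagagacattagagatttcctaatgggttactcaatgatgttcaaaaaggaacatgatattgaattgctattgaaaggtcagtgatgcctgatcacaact
Cyp2c39 start 2: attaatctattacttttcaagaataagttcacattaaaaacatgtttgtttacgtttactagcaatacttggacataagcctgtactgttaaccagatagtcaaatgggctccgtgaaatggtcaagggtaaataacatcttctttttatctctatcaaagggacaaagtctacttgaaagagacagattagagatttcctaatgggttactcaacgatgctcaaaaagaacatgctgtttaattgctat
Aligned with Cyp2c38, the windows of Cyp2c39 share 201 and 198 identical positions, 75.8% and 71.0% of the alignment, and with Cyp2c29 they share 195 and 186, or 74.1% and 68.1%. TATAAA lies before the start in Cyp2c29 and Cyp2c38, reaches across the second start of Cyp2c39 and is not in the window of its first. It occurs in 26 of 45 members for which RefSeq sequence was at hand, 57.8%, and in 15.7% of all 27025 genes, searched on either strand from 250 bases before to 50 bases after every annotated start. The array does not tell which start was used, and whether these letters matter for the level of any of these genes was not tested.

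Among the other Cyp2c members, the pseudogene Cyp2c53-ps ran from -3.02 to -2.03 (median -2.50) on water and from -6.01 to -5.06 (median -5.22) after fasting, with 5 of 6 fasted arrays above background. Its levels after fasting were all below those on water, by 6.91-fold (-2.79 ± 0.34; limma adjusted p = 4.86e-07). The fasted levels lay near background, so the size of this fall is not settled. Cyp2c55, an enzyme also known from the gut, had levels of -1.49 to -0.67 (median -1.21) and -3.81 to -2.93 (median -3.20), 4.20-fold lower (-2.07 ± 0.26). A further probe of Cyp2c55 gave -1.78 ± 0.25. Cyp2c44, an epoxygenase, ran from 5.92 to 6.39 (median 6.24) on water and from 4.90 to 5.36 (median 5.08) after fasting. It was 2.10-fold lower (-1.07 ± 0.09; limma adjusted p = 1.21e-09), and its other probe gave -1.13 ± 0.10. Cyp2c29, the major epoxygenase of liver, ran from 6.92 to 7.17 (median 7.08) and from 6.25 to 6.50 (median 6.38). None of these genes had an overlap between the groups, and the fall of Cyp2c29 was 1.60-fold (-0.68 ± 0.07; limma adjusted p = 4.29e-08).

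A run of 4 adjacent genes, Cyp2c67, Cyp2c68, Cyp2c40 and Cyp2c69, fell by similar amounts, with log2 fold changes of -0.80 ± 0.11, -0.54 ± 0.11, -0.54 ± 0.11 and -0.69 ± 0.11. Probes of 3 of them list each other's transcripts, so they are not 4 separate observations. The next genes along the chromosome, Cyp2c37, Cyp2c54 and Cyp2c50, were not called. Cyp2c37 ran from 7.21 to 7.54 (median 7.50) on water and from 6.97 to 7.39 (median 7.23) after fasting, and the groups overlapped. The 95% intervals of the log2 fold change were -0.49 to 0.00 for Cyp2c37, -0.30 to 0.22 for Cyp2c54 and -0.40 to 0.07 for Cyp2c50. Cyp2c65 and Cyp2c66 differed by 0.19 ± 0.22 and -0.08 ± 0.28.

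**Figure D3:**
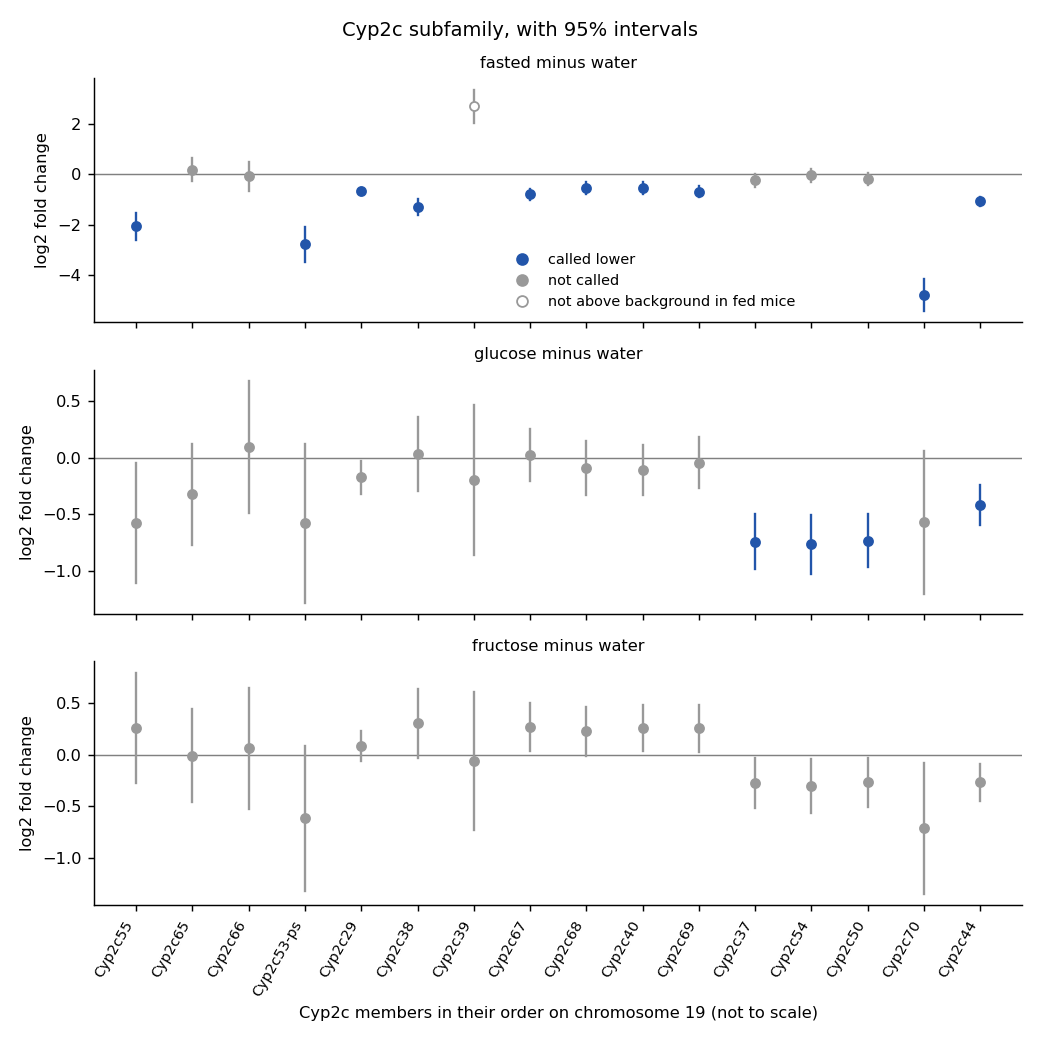
Log2 fold change of the 16 Cyp2c members (points) with 95% intervals (lines), in their order on chromosome 19 and not to scale, for fasting, glucose and fructose against water, 6 mice per group. Blue points were called lower and grey points were not called. The open point is Cyp2c39, drawn at its measured value although its fed levels were not above background, so that its size is not settled. Its neighbours on both sides were lower with fasting, and the adjacent Cyp2c37, Cyp2c54 and Cyp2c50 were the called members of the main cluster on glucose.

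A further motif is shown for Cyp2c70 and Cyp3a11, which moved in opposite directions with fasting and share it. CAAAGTCCA, a sequence bound by the liver factor HNF4, occurs on either strand in 9 of 45 members, 20.0%, and in 0.555% of all genes. The printed 250 bases are from RefSeq on GRCm38.p6, both on the minus strand, 5′ to 3′, with CAAAGTCCA and TATAAA in capitals: Cyp2c70 at chr19:40187287-40187536 and Cyp3a11 at chr5:145879855-145880104.
Cyp2c70: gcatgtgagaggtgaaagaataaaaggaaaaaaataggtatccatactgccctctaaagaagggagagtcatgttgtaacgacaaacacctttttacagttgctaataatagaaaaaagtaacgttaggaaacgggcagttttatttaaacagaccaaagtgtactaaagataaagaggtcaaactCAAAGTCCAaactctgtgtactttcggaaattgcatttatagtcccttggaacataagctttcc
Cyp3a11: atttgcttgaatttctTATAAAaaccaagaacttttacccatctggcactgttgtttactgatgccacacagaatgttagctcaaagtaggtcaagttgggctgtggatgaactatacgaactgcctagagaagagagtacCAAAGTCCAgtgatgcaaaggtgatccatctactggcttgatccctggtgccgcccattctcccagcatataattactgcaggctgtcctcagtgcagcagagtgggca
The 9 genes are Cyp2c40, Cyp2c65, Cyp2c67, Cyp2c68, Cyp2c69, Cyp2c70, Cyp3a11, Cyp3a16 and Cyp3a41a. With fasting 5 of them were lower, 3 were higher and 1 was not called, where 21.9% of all genes were called lower and 20.7% higher. They split by subfamily, as did members without the motif, such as Cyp2c29 and Cyp2c38 (lower) and Cyp3a13 and Cyp3a25 (higher). Whether the motif plays a part was not tested. Hnf4a itself was 1.22-fold higher (0.29 ± 0.09; limma adjusted p = 0.0133), with overlapping groups. Other motifs, also on either strand, were the CAR and PXR half-site AGGTCA, found in 14 of 45 members and 18.1% of all genes, the half-site AGTTCA, in 6 and 15.7% of all, and the Ahr core GCGTG, in 8 and 35.2% of all. These near-identical promoters are not independent of each other.

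Family 1 holds the best known targets of Ahr, the receptor for dioxin. Cyp1a2, a pericentral enzyme that acts on caffeine, had log2 levels of 3.62 to 4.01 (median 3.77) on water and 1.62 to 2.12 (median 2.05) after fasting. All fasted mice were below all fed mice, and the gene was 3.55-fold lower (-1.83 ± 0.11; limma adjusted p = 1.98e-11). Cyp1a1 was at -4.59 to -4.02 (median -4.15) on water and -6.11 to -4.44 (median -5.19) after fasting, when 4 of 6 arrays were above background. These ranges overlapped, and the gene was 2.06-fold lower (-1.04 ± 0.24; limma adjusted p = 0.00102). Its difference varied between slides, at -0.167, -2.005 and -0.961. Cyp1b1, mainly an enzyme of tissues other than liver, went the other way. It was at -5.14 to -4.38 (median -4.75) on water, above background on 5 of 6 arrays, and at -4.21 to -2.92 (median -3.74) after fasting, 2.15-fold higher (1.101 ± 0.247; limma adjusted p = 0.000823). Of 6 measured Ahr targets outside the P450 families, Nqo1 was higher (1.17 ± 0.21), Lrat (-1.27 ± 0.16) and Ugt1a6a (-0.73 ± 0.12) were lower, and 3 were not called. With fasting 42.7% of all genes were called, so the count sets these targets little apart. Lrat is also a marker of stellate cells. Ahr itself differed by 0.22 ± 0.18 and was not called.

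Of the 10 Cyp2d members, relatives of the human drug-metabolising enzyme CYP2D6, 5 were higher with fasting, 2 were lower and 3 were not called. Their median log2 fold change was 0.19. Among all genes 20.7% were called higher and 21.9% lower, so the share of lower Cyp2d members was near that of all genes. Cyp2d9, a male-biased testosterone hydroxylase, ran from 6.40 to 6.72 (median 6.60) on water and from 6.95 to 7.39 (median 7.04) after fasting. It was 1.42-fold higher with no overlap (0.50 ± 0.07; limma adjusted p = 2.45e-06). Cyp2d22 ran from 0.85 to 1.09 (median 0.99) and from 1.38 to 1.89 (median 1.69), again without overlap, and was 1.58-fold higher (0.66 ± 0.10). Cyp2d34, Cyp2d12 and Cyp2d11 rose by 0.58, 0.35 and 0.22. Cyp2d40 fell: its levels were 6.87 to 7.56 (median 7.10) on water and 5.71 to 6.39 (median 6.24) after fasting, 2.06-fold lower (-1.04 ± 0.14; limma adjusted p = 2.35e-06). Cyp2d13 was lower too (-0.9999 ± 0.138). Cyp2d10, Cyp2d26 and Cyp2d37-ps were not called, at 0.09 ± 0.06, 0.16 ± 0.07 and -0.29 ± 0.23. The other probe of Cyp2d26 gave 0.35 ± 0.05 and was called higher (limma adjusted p = 6.57e-06), so this gene is uncertain.

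Members of several subfamilies showed small or no differences with fasting. Cyp2a5, the coumarin hydroxylase, ran from 8.13 to 8.52 (median 8.38) on water and from 8.15 to 8.58 (median 8.48) after fasting. Cyp2a4, a steroid hydroxylase, ran from 7.47 to 8.02 (median 7.83) and from 7.52 to 8.07 (median 8.01). The ranges overlapped nearly in full, and the 95% intervals were -0.21 to 0.36 for Cyp2a5 and -0.23 to 0.46 for Cyp2a4. Cyp2a12 and Cyp2a22 differed by -0.08 ± 0.06 and 0.09 ± 0.09. Cyp2e1, which oxidises ethanol and acetone, ran from 9.32 to 9.61 (median 9.37) on water and from 9.36 to 9.58 (median 9.46) after fasting. It was not called, with an interval of -0.05 to 0.18, but its other probe gave 0.52 ± 0.07 (limma adjusted p = 1.76e-06), so the gene is reported as uncertain.

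The Cyp2j genes encode epoxygenases. Cyp2j5 had levels of 5.43 to 5.58 (median 5.54) on water and 5.02 to 5.49 (median 5.20) after fasting. The groups overlapped, and the gene was 1.24-fold lower (-0.31 ± 0.06; limma adjusted p = 0.000301). Its other probe gave -0.22 ± 0.18 and was not called (limma adjusted p = 0.360). Cyp2j6, Cyp2j8 and Cyp2j13 were lower by 1.33-fold, 1.27-fold and 1.27-fold, and Cyp2j9 was not called (0.38 ± 0.17). The other probe of Cyp2j6 gave -0.22 ± 0.14 and was not called (limma adjusted p = 0.210), so the calls of Cyp2j5 and Cyp2j6 rest on the probe used. Cyp2r1, a vitamin D 25-hydroxylase, ran from 2.61 to 2.90 (median 2.72) on water and from 1.60 to 2.31 (median 1.88) after fasting. Every fasted mouse was lower, and the difference was 1.77-fold (-0.83 ± 0.10; limma adjusted p = 2.29e-07). Cyp2f2, a naphthalene-oxidising enzyme of periportal hepatocytes and of the lung, ran from 8.65 to 8.93 (median 8.80) and from 8.35 to 8.61 (median 8.47). It was 1.24-fold lower without overlap (-0.31 ± 0.07). Cyp2g1, Cyp2s1, Cyp2t4 and Cyp2w1 were not called, with log2 fold changes of -0.57 ± 0.35, -0.21 ± 0.23, 0.17 ± 0.14 and 0.02 ± 0.17.

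Cyp2u1, a fatty acid hydroxylase, was called higher by its brightest probe and lower by its others. The brightest probe had levels of 8.04 to 8.50 (median 8.18) on water and 9.03 to 9.34 (median 9.15) after fasting, a log2 fold change of 0.92 ± 0.09. The other probes gave -1.19 ± 0.11 (limma adjusted p = 1.22e-08) and -1.54 ± 0.11 (limma adjusted p = 1.27e-10). Bases 16 to 45 of the 60 in each probe are shown, 5′ to 3′, because the sequences differ in kind, with repeated GT in capitals. The brightest probe is at chr3:130996343-130996402 (mm9, minus strand), probe 2 at chr3:131000768-131000827 and probe 3 between 130997965 and 130998356.
Cyp2u1 brightest probe: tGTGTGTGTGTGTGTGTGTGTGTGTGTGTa
Cyp2u1 probe 2: gactacctgttctacatcattggggacctc
Cyp2u1 probe 3: cgctcgccattcctcacatgacctcggaga
The brightest probe holds 32 bases of unbroken GT repeat. On the array 80 kept probes had at least 10 GT or CA units in a row. Their median log2 fold change with fasting was 0.80, with 48 above 0 and 32 below, against a median of 0.01 over all genes. These repeat probes were also bright, with a median level of 6.70 on water against -1.67 over all kept probes. Probes 2 and 3 of Cyp2u1, without such a repeat, had mean levels of -0.13 and -0.72 on water. The count of 17 members called higher includes Cyp2u1, whose direction is thus uncertain.

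Cyp2c50 was likewise read differently by its probes. The brightest probe ran from 6.77 to 7.10 (median 7.02) on water and from 6.60 to 6.98 (median 6.85) after fasting (-0.17 ± 0.11). The other ran from 0.32 to 1.00 and from 1.69 to 2.33, a log2 fold change of 1.23 ± 0.15 (limma adjusted p = 3.98e-07). Cyp2d40 fell by both its probes, but the size by the dimmer one is not settled: its level was -2.80 ± 0.71 on water and -6.23 ± 1.16 after fasting (mean ± SD), where 2 of 6 arrays were above background. In all, 12 members had more than 1 kept probe, with 13 further probes.

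**Figure D4:**
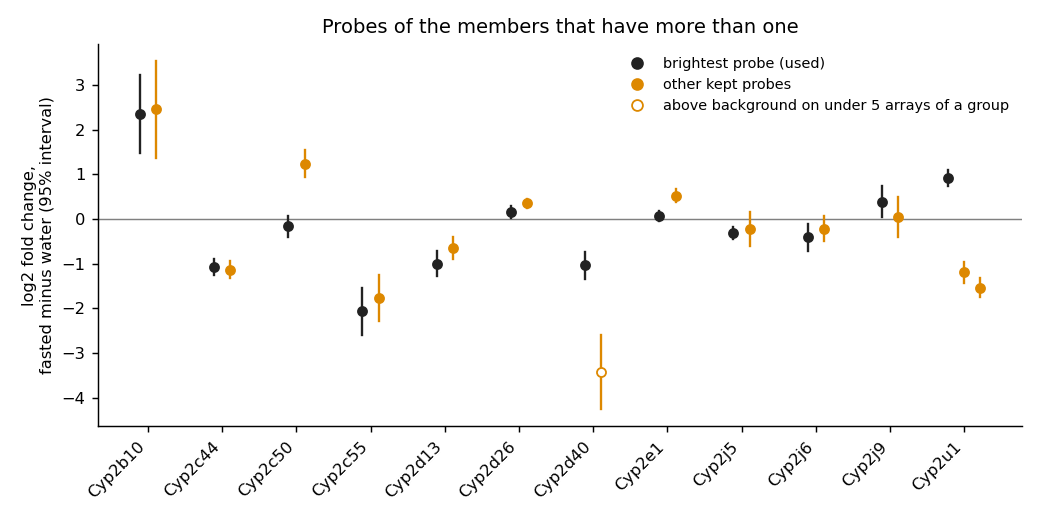
Log2 fold change between fasted mice and mice on water for each kept probe of the 12 members that have more than 1 (points) with 95% intervals (lines), 6 mice per group. Black points are the brightest probes, used throughout, and orange points the others. The probes of Cyp2u1 lie at 0.92, -1.19 and -1.54, and those of Cyp2c50 at -0.17 and 1.23. The open point is the dimmer probe of Cyp2d40, near background after fasting, while those of Cyp2b10, Cyp2c44 and Cyp2c55 lie close together.

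Glucose against water shows what sugar in the drinking water adds to feeding. Of the 55 members 8 were called, which is 14.5%, against 0.900% of all genes tested. All 8 were lower, where 0.471% of all genes were called lower, and 0 members were called higher (limma; 20 members had an unadjusted p under 0.05, against 11.6% of all genes). The median was -0.17 over the members and -0.01 over all genes, and 44 of 55 members lay below 0. In 7 members the groups did not overlap, against 2.47% of all genes. The count of 8 was 4 without water replicate 2 or without water replicate 4.

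The 3 adjacent genes Cyp2c37, Cyp2c54 and Cyp2c50 fell together on glucose. Cyp2c50 ran from 6.77 to 7.10 (median 7.02) on water and from 5.98 to 6.51 (median 6.24) on glucose. Cyp2c37 ran from 7.21 to 7.54 (median 7.50) and from 6.44 to 6.94 (median 6.72), and Cyp2c54 from 6.07 to 6.70 (median 6.51) and from 5.47 to 5.94 (median 5.70). In all 3 genes every mouse on glucose was below every mouse on water. The log2 fold changes were -0.74 ± 0.11 for Cyp2c50 (limma adjusted p = 0.00135), -0.74 ± 0.12 for Cyp2c37 (limma adjusted p = 0.00178) and -0.77 ± 0.13 for Cyp2c54 (limma adjusted p = 0.00247). Here the other probe of Cyp2c50 was lower too, with a log2 fold change of -0.97 ± 0.15. The probe of Cyp2c37 also lists Cyp2c50, so these 2 are not separate observations. Within the 3 slides Cyp2c54 differed by -0.82, -0.81 and -0.67.

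The promoters of Cyp2c37 and Cyp2c50 are shown because the genes fell by nearly the same amount on glucose and because a shared RNA signal cannot be told apart from a shared response. Both are on the plus strand of GRCm38.p6 in RefSeq, at chr19:39992174-39992423 and chr19:40089429-40089678.
Cyp2c37: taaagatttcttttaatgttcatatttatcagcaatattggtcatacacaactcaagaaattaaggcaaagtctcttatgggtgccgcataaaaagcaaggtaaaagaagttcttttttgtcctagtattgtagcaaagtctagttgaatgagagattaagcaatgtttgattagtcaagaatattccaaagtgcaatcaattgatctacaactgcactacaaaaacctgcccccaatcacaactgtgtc
Cyp2c50: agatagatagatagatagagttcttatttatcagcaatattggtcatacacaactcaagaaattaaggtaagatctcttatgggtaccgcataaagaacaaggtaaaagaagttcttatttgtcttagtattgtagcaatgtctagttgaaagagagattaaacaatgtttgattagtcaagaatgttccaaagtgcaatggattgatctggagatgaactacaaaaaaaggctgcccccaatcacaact
They share 215 identical positions, 84.3% of the alignment, and neither window holds TATAAA or CAAAGTCCA. Closer pairs exist among the members, such as Cyp2a4 and Cyp2a5 with 97.6%, and neither of these was called on glucose.

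Bases 16 to 45 of the 60 in the 2 Cyp2c50 probes, which gave opposite signs with fasting and the same sign on glucose, were as follows on the plus strand of mm9, at chr19:40188154-40188213 for the brightest and chr19:40166565-40166624 for the other.
Cyp2c50 brightest probe: ctttccacactggacatactgctttttatc
Cyp2c50 other probe: ctaaagtacatattttgatctatcaattca
The sequences have no repeat of the kind seen in Cyp2u1.

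Cyp1a2 and Cyp2c44 were lower both on glucose and after fasting. Cyp1a2 ran from 2.94 to 3.38 (median 3.30) on glucose, below all mice on water, and was 1.48-fold lower (-0.56 ± 0.11; limma adjusted p = 0.0163). Cyp2c44 ran from 5.62 to 5.83 (median 5.80), also below all mice on water, and was 1.34-fold lower (-0.42 ± 0.09; limma adjusted p = 0.0197). Without water replicate 4 Cyp1a2 was not called (limma adjusted p = 0.0524), and Cyp2c44 was not called without water replicate 1, water replicate 2 or glucose replicate 4, at 0.0508 to 0.0512. Of the Cyp3a genes, Cyp3a11, Cyp3a16 and Cyp3a41a were lower on glucose and higher after fasting, each against the same 6 mice on water. Cyp3a11 ran from 5.73 to 6.72 (median 6.18) on glucose and overlapped with water (-0.64 ± 0.15; limma adjusted p = 0.0386). Cyp3a16 ran from 4.84 to 5.80 (median 5.18) and overlapped as well (-0.63 ± 0.15; limma adjusted p = 0.0399). Cyp3a41a ran from 7.67 to 8.37 (median 7.93) and overlapped too (-0.50 ± 0.11; limma adjusted p = 0.0248). The differences of Cyp3a11 within slides were -1.05, -0.31 and -0.57. The probe of Cyp3a11 also lists Cyp3a41a, and that of Cyp3a16 put the mice on glucose in the same order as that of Cyp3a11. The calls of Cyp3a11, Cyp3a16 and Cyp3a41a are thus not 3 separate observations. These 3 calls were the weakest of the 8: Cyp3a11 and Cyp3a16 were no longer called without any 1 of water replicates 2 to 6 or glucose replicates 1, 2, 5 or 6, and Cyp3a41a without any 1 of the same mice except water replicate 3. Without glucose replicate 2 the limma adjusted p-values were 0.0973, 0.102 and 0.0672.

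Cyp2b10 and Cyp2b9 had larger differences on glucose that were not called. Cyp2b10 ran from -2.23 to -0.33 (median -1.47), 3.16-fold lower with overlapping groups (-1.66 ± 0.42; limma adjusted p = 0.0643). Cyp2b9 ran from -3.76 to -2.11 (median -3.16; -1.53 ± 0.41; limma adjusted p = 0.0826). Without water replicate 3, the lowest of its group in both genes, they differed by -1.98 and -1.82 and both were called. Cyp3a13 did not overlap with water at 3.61 to 3.80 (median 3.72), but was not called (-0.32 ± 0.08; limma adjusted p = 0.0724). Cyp2c70 ran from 6.59 to 7.46 (median 7.12), just below the mice on water, and was not called (-0.57 ± 0.31; limma adjusted p = 0.496). Cyp2d40 had the highest log2 fold change of all members on glucose against water, 0.45 ± 0.14, and was not called (limma adjusted p = 0.148). Cyp2e1 was not called on glucose by its brightest probe, but its other probe gave -0.39 ± 0.07 and was called lower (limma adjusted p = 0.00592).

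Fructose against water gave 1 called member of 55, 1.82%, against 0.955% of all genes tested, and 19 members had an unadjusted p under 0.05, against 16.2% of all genes. The called gene was Cyp3a13. It ran from 3.42 to 3.85 (median 3.71) on fructose, below all mice on water, and was 1.28-fold lower (-0.36 ± 0.08; limma adjusted p = 0.0410). It was no longer called without any 1 of the 6 mice on water or of fructose replicates 1, 3, 5 and 6, with limma adjusted p-values of 0.0516 to 0.107. In 4 members the groups did not overlap, against 1.87% of all genes: Cyp3a13, Cyp2a12, Cyp2e1 and Cyp2c70. Cyp2e1 ran from 9.12 to 9.32 (median 9.18), with a log2 fold change of -0.21 ± 0.05 (limma adjusted p = 0.0607). Cyp2a12 differed by -0.25 ± 0.06 (limma adjusted p = 0.0575), and Cyp2c70 by -0.71 ± 0.31 (limma adjusted p = 0.244). Cyp2b10 and Cyp2b9 were at -1.47 ± 0.42 and -1.64 ± 0.41 and not called (limma adjusted p = 0.0906 and 0.0575).

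The direct comparison of fructose with glucose is the test of whether the sugars differ. It called 0 of 55 members and 0% of all genes (limma), and 13 members had an unadjusted p under 0.05, against 7.84% of all genes. Among these 13, Cyp2c50, Cyp2c37 and Cyp2c54 were higher on fructose by 0.47, 0.47 and 0.46 on the log2 scale. The 95% intervals were 0.23 to 0.70, 0.22 to 0.71 and 0.20 to 0.72, with a limma adjusted p of 0.438 for each. So a call on glucose that is missing on fructose is not shown to differ between the sugars. Cyp2c29 was the only member without overlap, at 6.65 to 7.02 (median 6.95) on glucose and 7.04 to 7.34 (median 7.12) on fructose (0.25 ± 0.07; limma adjusted p = 0.438), where 0.652% of all genes did not overlap.

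Groups of members known for a common regulator or place were described by their counts, beside which 42.7% of all genes were called with fasting and 0.900% on glucose. Of 11 measured members responsive to CAR or PXR, 4 were higher and 2 lower with fasting, and 0 were higher and 4 lower on glucose, with medians of 0.07 and -0.64. Of 7 members known as pericentral, 1 was higher and 2 lower with fasting and 4 were lower on glucose, with medians of -0.17 and -0.56. Of 14 arachidonate epoxygenases and hydroxylases, 2 were higher, Cyp2c39 (kept through the fasted mice alone) and Cyp2u1 by its brightest probe, and 8 were lower with fasting. On glucose 4 of them were lower. Of 5 members known as female-biased 3 were higher and 1 lower with fasting, and of the male-biased members measured Cyp2d9 was higher, while Cyp2u1 was higher by its brightest probe and lower by its others. All mice were male. The probes of the female-biased Cyp2a4, Cyp2b9, Cyp2c69 and Cyp3a41a also list other genes, so their values may be those of relatives. The same may hold for Cyp3a16, whose levels followed those of Cyp3a11. These lists share genes. The 3 Ahr-responsive members are those of family 1.

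Genes that serve or regulate the P450 enzymes were counted as well. Por, the reductase that feeds all of them electrons, was 2.61-fold higher after fasting, at 8.21 ± 0.05 against 6.83 ± 0.19 (1.38 ± 0.09; limma adjusted p = 5.29e-11). On glucose Por was 1.42-fold lower, at 6.33 ± 0.08 (-0.50 ± 0.09; limma adjusted p = 0.00777). With fasting 20.7% of all genes were called higher and 21.9% lower, and on fructose 0.955% were called. Of 17 genes of electron supply and heme handling 5 were higher and 7 lower with fasting, the latter including Cyb5b (-1.43 ± 0.09) and Cyb5r3 (-0.997 ± 0.093). Hmox1, which breaks down heme, was higher (0.79 ± 0.19). On fructose 1 of the 17 was lower, Cyb5a (-0.31 ± 0.07).

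For the lists that follow, 20.7% of all genes were called higher with fasting and 21.9% lower. On glucose 0.900% were called, and on fructose 0.955%. Among 22 CAR and PXR targets outside the P450 families 9 were higher and 8 lower with fasting, with a median of 0.09. Higher were Gadd45b (2.94 ± 0.37), the uptake transporter Slco1a4 (2.38 ± 0.26) and the sulfotransferase Sult1d1 (1.33 ± 0.16). On glucose 2 of the 22 were lower, Por and Slco1a4 (-1.30 ± 0.26; limma adjusted p = 0.0171). The receptor genes themselves were higher after fasting: Nr1i2 was 1.86-fold higher (0.90 ± 0.09), and Nr1i3, chosen after its values were seen, was 1.68-fold higher (0.75 ± 0.14). On glucose neither was called, at 0.00 ± 0.09 and -0.16 ± 0.14. Of 22 receptors and transcription factors of drug metabolism 8 were higher and 6 lower with fasting, including the coactivator Ppargc1a (2.57 ± 0.27), the repressor Nr0b2 (0.93 ± 0.30) and the liver factor Onecut1 (-3.65 ± 0.50; 12.6-fold lower). Glucose called 0 of the 22, and fructose 2, both lower, of which the glucocorticoid receptor gene Nr3c1 differed by -0.24 ± 0.06.

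Of 10 regulators of sex-biased liver expression and growth hormone action 2 were higher and 3 lower with fasting. Among all genes 20.7% were higher and 21.9% lower. Cux2, a repressor of male-biased genes, was at -2.68 ± 1.49 after fasting and -5.55 ± 0.38 on water (mean ± SD, n = 6), where 2 of 6 arrays were above background, and the size of its difference is not settled. Socs2 (-2.34 ± 0.52), Igfals (-1.13 ± 0.12) and Ghr (-0.64 ± 0.06) were lower. On glucose Igf1 was lower (-0.33 ± 0.06). Of 8 clock-linked factors, which include Dbp, a known activator of P450 genes, 4 were higher, such as Arntl (1.34 ± 0.20), Clock (0.77 ± 0.09) and Nfil3 (0.59 ± 0.13), while Dbp was lower (-0.72 ± 0.22). On fructose Nr1d1 was higher (1.19 ± 0.23). All mice were killed at the same hour, so a shift in the phase of the clock cannot be told apart from a change in level. Of 26 other phase 1 enzymes 4 were higher and 12 lower with fasting, among them Fmo2 (1.32 ± 0.20), Ces2c (-2.23 ± 0.30) and Adh4 (-1.25 ± 0.09). On glucose Aox3 and Adh4 were lower, and on fructose Aox3.

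Markers of liver cell types and zones were counted in the same way. With fasting 20.7% of all genes were called higher and 21.9% lower, while 0.900% were called on glucose and 0.955% on fructose. Of 9 pericentral markers, which include Cyp1a2 and Cyp2e1, 5 were lower and 1 higher, and their mean log2 level per array lay between 3.84 and 4.01 on water and 3.26 and 3.63 after fasting. Rgn (-1.39 ± 0.06), Lgr5 (-1.22 ± 0.31) and Lect2 (-0.98 ± 0.09) were lower, and Oat was higher (1.54 ± 0.17). Of 10 periportal markers, which include Cyp2f2, 7 were higher and 2 lower, with mean levels of 6.00 to 6.23 on water and 6.56 to 6.84 after fasting. Cyp2f2 was among the lower. The hepatocyte list had 2 higher and 1 lower of 6, with mean levels of 8.53 to 8.78 and 8.82 to 8.99. The mean levels overlapped between these groups for the Kupffer and myeloid list (2 higher of 8), the endothelial list (3 higher, 2 lower of 7), the stellate list (1 higher, 3 lower of 7), the cholangiocyte list (3 lower of 5), the lymphocyte list (1 lower of 5), the red cell list (1 lower of 3) and the adipocyte list (2 higher of 4). Of 4 kidney and gut markers 2 were measured, with Fabp2 higher (0.75 ± 0.20), and the kidney markers Umod and Kap were below the limit for use. On glucose 2 pericentral markers were lower, and of the periportal markers 4 were lower and 1 higher. On fructose 1 periportal marker and 1 hepatocyte marker were lower. The part of cell composition in the P450 results was not tested.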

How the data were processed

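Liver RNA of 24 mice was measured on 1-colour Agilent arrays, and the authors extracted the signals with Feature Extraction 10.10.1.1, per the file headers. The deposited files hold intensity values per spot, background-corrected by that software. The authors' deposited series table holds log2 values of 35967 probes, which track the log2 median intensity of each array, and served as an alternative. Whether the mice shared cages or litters is not given in the sources used here, and p-values measure the spread between mice.

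From 62976 spots per array, 59305 that were not controls were used. Processed intensity was taken to log2, centred on each array's 75th percentile and averaged over spots of a probe. Probes well above background on at least 6 arrays were kept, 36230 of 56605, and the brightest stood for its gene, leaving 23990. Groups of 6 were compared with limma 3.58.1 in R 4.3.3 on the group means of all 24 arrays, with Benjamini-Hochberg adjustment over all genes and a call at 0.05. Single further probes were tested and adjusted over the 36230 probes. All comparisons against water share the same 6 mice. Errors of fold changes are standard errors, intervals are 95%, and the script was tested on simulated data.

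The members, lists and tests were chosen with earlier results of these data known. Genes were named where they were on a list of well known members, were called with at least a 2-fold difference, or were called on a sugar; the other members are given by subfamily, and up to 4 called genes by size from each list, with exceptions stated. Of the listed genes, 2 that the rule names are not reported here. Promoters came from RefSeq on GRCm38.p6, matched by symbol for 45 of 55 members, with every annotated start searched and aligned by Biopython 1.88. Alternatives covered background correction, normalization, the dim filter, the choice of probe, slides, replicate numbers, array weights and each array left out.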

Additional observations from a re-analysis of the deposited data

Results flagged for a closer look

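In 124 sets of 6 mice, 1 for each of 31 named members in each group, the lowest or highest mouse stood apart from the others in 10, by Dixon's criterion at 95%. Chance alone gives about 1 in 20. In all 10 the mouse was the lowest of its group, and values are log2 levels relative to the 75th percentile.

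Cyp2c55 had such a mouse in 3 groups: glucose replicate 2 at -2.67 with the next at -1.78, fructose replicate 4 at -2.22 with the next at -0.85, and fasted replicate 6 at -3.81 with the next at -3.22. Cyp1a2 had 2, glucose replicate 4 at 2.94 with the next at 3.22 and fasted replicate 4 at 1.62 with the next at 1.97. Cyp2b9 was at -2.95 in water replicate 3, with the next at -1.52. Cyp2c44 was at 5.62 in glucose replicate 4, with the next at 5.76. Cyp2c53-ps was at -6.01 in fasted replicate 3, with the next at -5.38. Cyp2a4 was at 7.52 in fasted replicate 6, with the next at 7.88, and Cyp2d9 at 6.40 in water replicate 2, with the next at 6.60. What set these mice apart was not tested.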

How the results depend on the processing

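With fasting, 25 named members were called, of which 22 kept the call under every alternative other than single slides and other probes, and 25 kept it without any 1 array. By the same count 3 of 8 calls held on glucose, and 0 of 1 on fructose. The 25 named members called with fasting, and the 17 higher members, include Cyp2c39. It was kept only because of its fasted arrays and had to differ, so its kept call says nothing about stability. The calls lost with fasting were those of Cyp2j5 with the mean of its probes, Cyp3a41a with quantile normalization and in the authors' deposited table of log2 values, while Cyp2u1 changed sign. Beside the 17 higher members with fasting, the fits within slides gave 10, 11 and 11, and beside the 20 lower members slide 3 alone gave 11. Each such fit has 2 mice per group. On glucose the 8 lower members became 5 with quantile normalization, 4 with median centring, 0 within each slide and 13 with array weights. On fructose the 1 lower member became 0 with median centring, without a filter on dim probes, within each slide or with only the groups compared, 2 with the mean of all probes, and 5 with normexp background correction or with array weights. Leaving out 1 array gave 17 to 19 higher and 19 to 21 lower with fasting, 4 to 9 lower on glucose and 0 to 4 lower on fructose. On glucose it was 4 without water replicate 2 or 4, and 5 without water replicates 5 or 6 or glucose replicates 1, 2 or 6. On fructose it was 0 without water replicates 1, 2, 4, 5 or 6 or fructose replicates 1, 3 or 6, it was 2 without water replicate 3, glucose replicate 2, fructose replicate 2 or fasted replicates 3 or 5, and 4 without fructose replicate 4 or fasted replicate 2. No alternative gave a member called higher on either sugar or called between the sugars. With fasting Cyp2c50 turned to 0.53 as the mean of its probes and 1.23 by the other probe, and Cyp2u1 to -0.60 as the mean and -1.19 and -1.54 by its others. The cause was not tested.

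The replicate numbers did not pair the mice: deviations of same-numbered mice correlated at 0.0333 on average over 36 pairs. With the replicate number as a block, 17 members were higher and 20 lower with fasting, 7 were lower on glucose and 1 on fructose. Signals near background limit Cyp1a1, Cyp1b1, Cyp2c39, Cyp2c66 and, after fasting, Cyp2c53-ps.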
